A study of Mus musculus with 9 samples.

Results

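The angiopoietin and Tie receptor genes form a small signalling family of blood vessels, and 5 of them were followed here across whole mouse ovaries: the ligand genes Angpt1, Angpt2 and Angpt4 and the receptor genes Tek and Tie1. They were chosen by gene symbol from the table of gene counts, taking for each symbol the row with the highest summed count, and they are 5 of the 46078 genes in that table. All 5 passed the filter on low counts that left 16722 genes for the test between genotypes.

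RNA-seq of poly-A RNA was performed on 5 ovary samples from WT mice and 4 from ERβKO mice, all of strain C57BL/6J and all labelled untreated, to ask how loss of estrogen receptor β (ERβ, encoded by Esr2) alters ovarian transcripts. The knockouts carry a germline deletion of exon 3 of Esr2, made by crossing floxed mice to a deleter line with Cre at Rosa26, so the gene is lost in every cell type. The controls lack that Cre. Labels put no age, cycle stage or diet on a single ovary, and the protocol text shared by all samples also describes a high-fat or control diet with injections of an ERβ ligand or vehicle. Each sample is labelled a separate replicate, and the p-values measure the spread between these samples.

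Total counts ranged from 12353740 to 16519975 in the WT libraries and from 13088728 to 18717510 in the ERβKO libraries. WT replicate 2 stood apart from its group: on the first principal component, which held 35.9% of the variance, it lay at 9.43, the other WT libraries between -43.8 and -15.6, and the ERβKO libraries between 19.4 and 35.3. Results are therefore also given without it. As it was the WT library nearest the ERβKO libraries on this component, leaving it out may enlarge differences between genotypes. Esr2 itself ranged from 12.4 to 23.9 FPKM in WT and from 10.5 to 23.7 FPKM in ERβKO ovaries, with a log2 fold change of -0.023; a count over the whole gene does not resolve the deleted exon and so checks nothing about the labels. FPKM, a fragment count scaled for transcript length and library depth, is a level per length, and levels of different genes are compared on that scale alone.

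Tek encodes Tie2, the receptor tyrosine kinase through which angiopoietins act on endothelial cells. Angiopoietin 1, made largely by the mural and mesenchymal cells around vessels, activates Tie2 and keeps vessels quiescent and tight, whereas angiopoietin 2, released by endothelial cells, can block that signal or weakly activate the receptor depending on context. In the ovary, where vessels grow into the theca layer and the corpus luteum and regress again in each cycle, the balance of both ligands is a long-studied feature of vessel growth and regression. Angiopoietin 4 is a further Tie2 ligand, and Tie1 is a related receptor that binds no angiopoietin on its own and modulates Tie2.

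In these ovaries the mean levels of the ligands lay further apart between genotypes than those of the receptors. Angpt1 had a lower mean level, and Angpt2 and Angpt4 higher ones, in ERβKO ovaries than in WT ovaries, each with overlap of the individual ovaries, and none of these differences passed the edgeR threshold. The Angpt2-to-Angpt1 ratio of every ERβKO ovary was above that of every WT ovary. Tek and Tie1 had nearly the same mean in both genotypes.

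Angpt1 (ENSMUSG00000022309) lies on the minus strand at chr15:42424727-42676977 (GRCm38). Its levels in WT replicates 1 to 5 were 5.89, 3.94, 2.66, 5.04 and 7.76 FPKM. In ERβKO replicates 1 to 4 they were 2.21, 2.65, 2.72 and 2.91 FPKM. WT replicate 3 fell within the ERβKO range and the other 4 WT ovaries lay above every ERβKO ovary. WT ovaries averaged 5.06 ± 1.94 FPKM (SD, n = 5) and ERβKO ovaries 2.62 ± 0.29 FPKM (SD, n = 4), so the WT ovaries also scattered more widely, with a coefficient of variation of 38.3% against 11.2%.

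The log2 fold change of Angpt1, ERβKO over WT, was -0.95 ± 0.27 (SE; 95% interval -1.55 to -0.34), which corresponds to a level 1.93-fold higher in WT. It had an unadjusted p of 0.0057 and an adjusted p of 0.0997 by the quasi-likelihood test of edgeR, adjusted over all genes tested by the Benjamini-Hochberg method. Without WT replicate 2, the log2 fold change was -1.03, with an adjusted p of 0.0547 by edgeR. Without WT replicate 3, the WT ovary with the lowest Angpt1, it was -1.11 with an adjusted p of 0.0283 by edgeR, which passed the threshold. The libraries numbered below 200 in the labels leave out WT replicates 4 and 5 and keep every ERβKO ovary. Among them the log2 fold change of Angpt1 was -0.63, with an adjusted p of 0.314 by edgeR. According to GENCODE M21, 14.2% of the exonic length of Angpt1 overlaps Gm17473 on the opposite strand, and Gm17473 held at most 3 counts in any library. As the strand setting of counting is not given, this does not show whether reads in the shared bases were left out.

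Angpt2 (ENSMUSG00000031465) lies on the minus strand at chr8:18690263-18741562, within the span of Mcph1 and without a shared exonic base. WT replicates 1 to 5 had 5.64, 6.32, 3.84, 5.93 and 5.30 FPKM of Angpt2. The values of ERβKO replicates 1 to 4 were 6.16, 10.2, 7.25 and 12.4 FPKM. Only ERβKO replicate 1 lay within the WT range, just below WT replicate 2, and the other 3 ERβKO ovaries were above every WT ovary. Here the ERβKO ovaries had the wider scatter: they averaged 9.02 ± 2.86 FPKM (SD, n = 4), against 5.41 ± 0.95 FPKM for the WT ovaries (SD, n = 5).

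For Angpt2, the log2 fold change was 0.72 ± 0.21 (SE; 95% interval 0.26 to 1.19), or 1.65-fold. The unadjusted p was 0.00564 and the adjusted p 0.0992 by edgeR with Benjamini-Hochberg adjustment. Without WT replicate 2 the log2 fold change was 0.78, with an adjusted p of 0.0654 by edgeR. Without ERβKO replicate 4, the ovary with the highest Angpt2, it was 0.52, with an adjusted p of 0.225 by edgeR. The surrounding gene Mcph1 had a log2 fold change of -0.23 with an adjusted p of 0.352 by edgeR, an estimate of the opposite sign to that of Angpt2.

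Angpt4 (ENSMUSG00000027460), on the plus strand at chr2:151911210-151945337, was the least abundant ligand in WT ovaries. It had 1.57, 1.35, 1.99, 0.748 and 1.04 FPKM in WT replicates 1 to 5. ERβKO replicates 1 to 4 had 1.49, 2.63, 3.79 and 2.56 FPKM. ERβKO replicate 1 was below 2 of the WT ovaries, and the other 3 were above all of them. The count behind these levels was small, from 38 to 104 per WT library and from 90 to 174 per ERβKO library.

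Angpt4 averaged 1.34 ± 0.48 FPKM over the WT ovaries (SD, n = 5) and 2.62 ± 0.94 FPKM over the ERβKO ovaries (SD, n = 4). The estimated log2 fold change was 0.95 ± 0.32 (SE; 95% interval 0.25 to 1.65), or 1.93-fold. With an unadjusted p of 0.0126 and an adjusted p of 0.138 by edgeR with Benjamini-Hochberg adjustment, it too missed the threshold. Leaving out WT replicate 2 gave 0.94 and an adjusted p of 0.129 by edgeR.

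**Figure D1:**
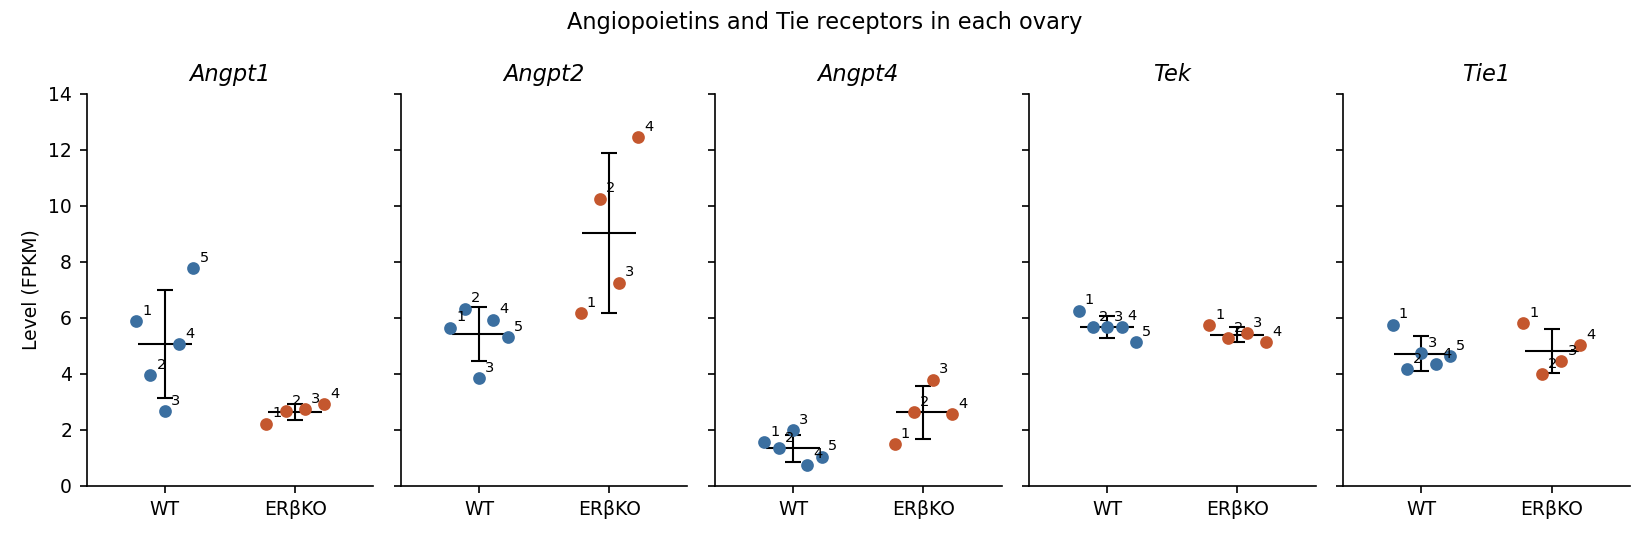
Level of each gene in FPKM (y axis) in the 5 WT and 4 ERβKO ovaries (x axis). Each point is 1 ovary with its replicate number, the horizontal bar is the mean and the whiskers are 1 SD. Angpt1 is spread from 2.66 to 7.76 FPKM among WT ovaries and lies between 2.21 and 2.91 FPKM in ERβKO ovaries, Angpt2 reaches 12.4 FPKM in ERβKO replicate 4, and the points of Tek sit between 5.11 and 6.25 FPKM in both genotypes.

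Tek (ENSMUSG00000006386), on the plus strand at chr4:94739289-94874976, was the steadiest member. Its levels were 6.25, 5.67, 5.67, 5.68 and 5.12 FPKM in WT replicates 1 to 5. In ERβKO replicates 1 to 4 they were 5.74, 5.27, 5.43 and 5.11 FPKM. The genotypes overlapped almost entirely, with 4 of 5 WT ovaries inside the ERβKO range. The log2 fold change was -0.083 ± 0.07 (SE; 95% interval -0.24 to 0.07) with an adjusted p of 0.545 by edgeR with Benjamini-Hochberg adjustment. Without WT replicate 2 it was -0.092. That interval does not reach the size of 0.4 on the log2 scale used for a call.

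Tie1 (ENSMUSG00000033191), on the minus strand at chr4:118471191-118490061, had 5.75, 4.15, 4.73, 4.33 and 4.61 FPKM in WT replicates 1 to 5. The ERβKO ovaries had 5.81, 3.98, 4.46 and 5.03 FPKM. All 5 WT ovaries fell within the ERβKO range. The log2 fold change was 0.022 ± 0.13 (SE; 95% interval -0.25 to 0.30) with an adjusted p of 0.943 by edgeR with Benjamini-Hochberg adjustment, and its sign turned without WT replicate 2, at -0.013. No direction is therefore given for Tie1. Replicate 1 had the highest Tie1 and the highest Tek of its genotype in both groups.

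By the criteria for a differentially expressed gene (DEG), an adjusted p below 0.05, a log2 fold change beyond 0.4 in size and a mean above 1 FPKM in at least 1 genotype, edgeR called 0 of the 5 members. It called 287 of 16722 genes tested, 1.72%, 153 with higher and 134 with lower expression in ERβKO. The 3 ligands, 3 of the 5 members, had an unadjusted p below 0.05, beside 19.8% of all genes tested. With DESeq2, the same 3 ligands were called, beside 4.66% of the genes to which DESeq2 gave an adjusted p. DESeq2's adjusted p was 0.0121 for Angpt1, 0.0221 for Angpt2 and 0.0488 for Angpt4, while Tek and Tie1 had 0.595 and 0.963. The calls of the ligands thus depended on the tool, although the log2 fold changes of the tools were nearly equal. FPKM ranges of the genotypes overlapped for all 5 members, and failed to overlap for 7.61% of the genes tested.

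An exact permutation test of the mean log2 FPKM between genotypes was also run for each of the 5 members (two-sided, over every split of the 9 ovaries into 5 and 4). Its unadjusted p was 0.0159 for Angpt2, 0.0397 for Angpt1 and 0.0476 for Angpt4, where the smallest that this exact permutation test can give is 0.00794. For Tek and Tie1 the exact permutation test gave 0.254 and 0.849.

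**Figure D2:**
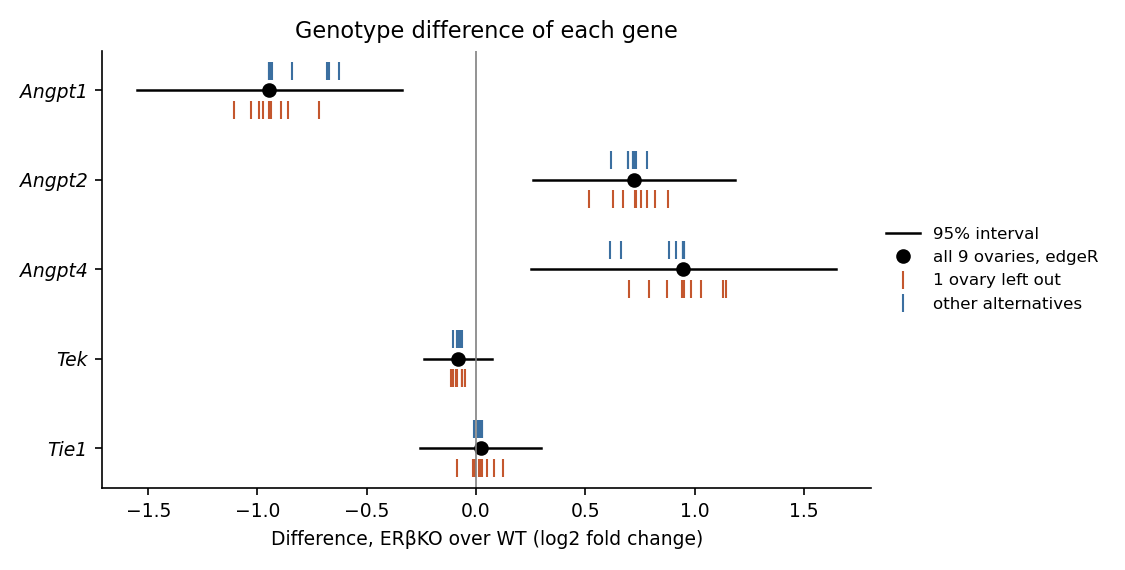
Log2 fold change of each gene, ERβKO over WT (x axis). Black points and lines are the edgeR estimate from all 9 ovaries and its 95% interval, orange ticks the estimates with 1 ovary left out, and blue ticks those under the other alternatives. The estimates of Angpt1 stay between -1.11 and -0.63 and those of Angpt2 between 0.52 and 0.88, whereas those of Tie1 lie on both sides of 0.

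The ligands were then set against each other within each ovary. The ratio of Angpt2 to Angpt1 on the FPKM scale was 0.958, 1.61, 1.44, 1.18 and 0.683 in WT replicates 1 to 5. It was 2.78, 3.86, 2.66 and 4.28 in ERβKO replicates 1 to 4. Both transcripts were thus at similar levels in WT ovaries, with Angpt2 the higher in 3 of 5, and Angpt2 exceeded Angpt1 in 4 of 4 ERβKO ovaries. The groups did not overlap, and the lowest ERβKO ratio was 1.66 times the highest WT ratio.

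The mean ratio was 1.17 ± 0.37 in WT (SD, n = 5) and 3.40 ± 0.80 in ERβKO (SD, n = 4). On the log2 scale the ratio averaged 0.17 ± 0.49 and 1.73 ± 0.34, a difference of 1.57, which was 1.70 without WT replicate 2. These ratios are a description: the pair was set against each other with the opposite directions of Angpt1 and Angpt2 already known, so no test is given. WT replicate 3, whose Angpt1 was as low as in the ERβKO ovaries, also had the lowest Angpt2 of all 9 ovaries, which left its ratio at 1.44. ERβKO replicate 1, whose Angpt2 was within the WT range, had the lowest Angpt1 of all ovaries.

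Angpt1 made up 45.0%, 33.9%, 31.3%, 43.0% and 55.0% of the summed FPKM of the 3 ligands in WT replicates 1 to 5. In ERβKO replicates 1 to 4 its share was 22.4%, 17.1%, 19.8% and 16.2%. The shares did not overlap, with a mean of 41.7% ± 9.5 in WT (SD, n = 5) and 18.9% ± 2.8 in ERβKO (SD, n = 4). Angpt2 took 46.2% ± 6.6 of the ligand sum in WT and 62.6% ± 7.2 in ERβKO ovaries, and Angpt4 took 12.2% ± 6.8 and 18.5% ± 6.1, both with overlap. The sum of the 3 ligands averaged 11.8 ± 2.1 FPKM for WT and 14.3 ± 3.4 FPKM for ERβKO ovaries, and the groups overlapped.

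**Figure D3:**
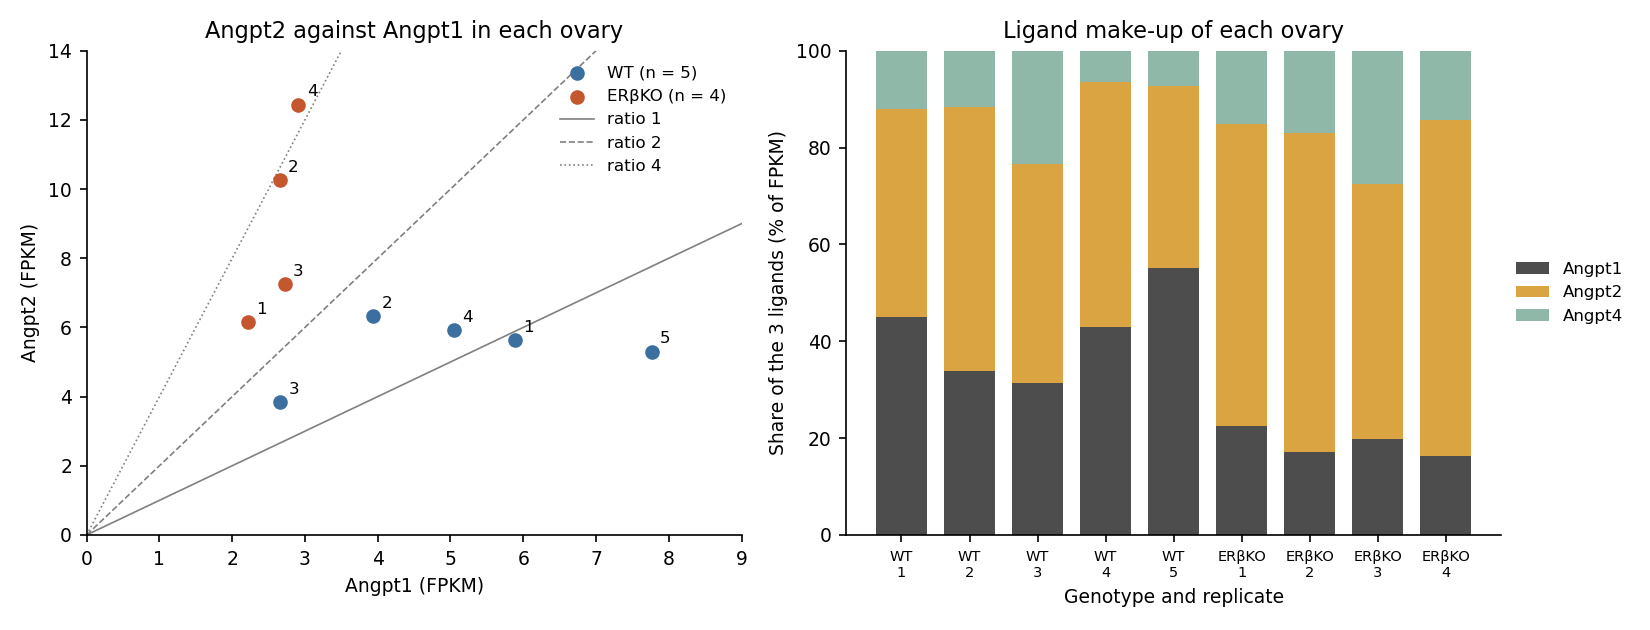
Left, Angpt2 against Angpt1, both in FPKM, with 1 point per ovary and lines of equal ratio. The 4 ERβKO ovaries lie above the line of ratio 2 and the 5 WT ovaries below it. Right, share of each ligand in the summed FPKM of the 3 ligands, in percent, for each ovary; the Angpt1 share is at least 31.3% in WT and at most 22.4% in ERβKO ovaries.

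The order of levels was not the same in both genotypes. In WT ovaries the mean levels ran from Tek through Angpt2 and Angpt1 to Tie1, and the neighbours in this order overlapped and changed places between ovaries: Tek was above Angpt2 in 2 of 5 ovaries, Angpt2 above Angpt1 in 3 of 5, and Angpt1 above Tie1 in 3 of 5. Angpt4 lay below Tie1 in 5 of 5 WT ovaries, without overlap. In ERβKO ovaries Angpt2 came first and was above Tek in 4 of 4 ovaries, without overlap. Tek and Tie1 overlapped, both lay above Angpt1 in every ERβKO ovary, and Angpt1 and Angpt4 overlapped at the bottom of the order.

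Relative to the receptor, Angpt2 had 0.955 ± 0.17 times the FPKM of Tek in WT (SD, n = 5) and 1.70 ± 0.61 times in ERβKO (SD, n = 4). Angpt1 had 0.902 ± 0.39 times the FPKM of Tek in WT and 0.490 ± 0.076 times in ERβKO. For Angpt4 the ratio to Tek was 0.235 ± 0.08 and 0.489 ± 0.18, and for Tie1 it was 0.830 ± 0.083 and 0.893 ± 0.13. All of these ratios overlapped between the genotypes.

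Covariation within the genotypes was described next. Removing each genotype mean takes out the opposite signs of Angpt1 and Angpt2 between genotypes, so the r below cannot show them. After the genotype mean was removed from the log2 CPM (counts scaled to a common library size), the Pearson r of Angpt1 with Angpt2 over the 9 ovaries was 0.467. Single ovaries differed in this. From WT replicate 2 through 4 and 1 to 5, Angpt1 rose from 3.94 to 7.76 FPKM while Angpt2 fell from 6.32 to 5.30 FPKM. WT replicate 3 was the lowest WT ovary for both genes. ERβKO replicate 1 was the lowest and ERβKO replicate 4 the highest of their genotype for both. The receptors varied together, with an r of 0.605 for Tek and Tie1, the highest of the 10 pairs of members. Angpt2 had the lowest values, -0.431 with Tie1 and -0.421 with Tek. These are descriptions over 9 ovaries that share their library scaling.

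The genes whose deviations followed each member most closely were ranked in the same way among 14178 genes. For Angpt1 they were Clic3 (r = 0.977), Stxbp6 (0.976) and Pla2g5 (0.966). Angpt2 was closest to Gm11423 (0.974), Ano6 (0.947) and Gab2 (0.925). Angpt4 was closest to Akr1b8 (0.979), Armcx3 (0.978) and Itga5 (0.963). For Tek the closest were Rxra (0.947), Kcnq5 (0.943) and Syde2 (0.929), and for Tie1 they were Zfp606 (0.965), Aox1 (0.959) and Lix1 (0.957). No gene appeared for more than 1 member. With 9 ovaries and this many genes ranked, each member had such close matches.

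For the members with a RefSeq promoter at hand (Angpt4, Tek and Tie1; GRCm38.p6), the 250 bases before to 50 bases after the start site were searched on both strands for short motifs of factors active in the ovary. The full estrogen response element, GGTCANNNTGACC, was in none of the 3, and in 0.0700% of 32851 promoters of that length. Its single arm, GGTCA, which is also contained in the full element and in the NR5A site CAAGGTCA, was in the Tek window alone, on the reverse strand, starting 46 bases before the start site; 40.5% of all promoters hold it. A GATA site, AGATAA, lay 36 bases after the Tek start site, and 11.2% of promoters hold one. CAAGGTCA and the FOXO site GTAAACA, present in 1.56% and 3.65% of promoters, had no match in the 3 windows. To show 1 ligand with a higher mean in ERβKO ovaries beside the receptor with a steady level, the 250 bases before the start site are printed 5′ to 3′, plus strand, for Angpt4 (chr2:151910957-151911206) and Tek (chr4:94739039-94739288), with a motif match in capitals:
Angpt4: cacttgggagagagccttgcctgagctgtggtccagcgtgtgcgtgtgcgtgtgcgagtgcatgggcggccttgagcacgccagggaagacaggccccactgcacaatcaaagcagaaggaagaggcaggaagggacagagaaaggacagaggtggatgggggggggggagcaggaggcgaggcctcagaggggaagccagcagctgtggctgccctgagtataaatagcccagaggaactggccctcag
Tek: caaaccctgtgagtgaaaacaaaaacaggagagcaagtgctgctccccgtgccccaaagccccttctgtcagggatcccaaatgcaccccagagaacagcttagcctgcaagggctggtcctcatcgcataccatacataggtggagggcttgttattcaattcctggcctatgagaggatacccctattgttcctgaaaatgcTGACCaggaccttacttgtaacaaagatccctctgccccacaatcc
These matches are letters in a window and describe no binding.

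The wider pathway was described with a list of 22 genes: the phosphatase Ptprb, which removes phosphate from Tie2, the matrix protein Svep1, the ligand Lect2, the protease Adam17, the adaptors and kinases downstream of Tie2, and the targets Foxo1 and Nos3. Of the 21 that were tested, edgeR called 0, beside 1.72% of all genes, and 4 had an unadjusted p below 0.05, of which 2 were higher and 2 lower in ERβKO ovaries. That share is close to the 19.8% of all genes tested. The median log2 fold change of the list was 0.077, beside -0.00089 over all genes tested. Its extremes were Nos3, the endothelial nitric oxide synthase, at -0.36 with an adjusted p of 0.250 by edgeR, and Dok2, an adaptor that binds phosphorylated Tie2, at 0.78.

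DESeq2 called 1 of the 21, Dok2, a share close to the 4.66% of all genes, so that neither count set the pathway apart. Dok2 averaged 2.04 ± 0.47 FPKM over the WT ovaries (SD, n = 5) and 4.23 ± 0.45 FPKM over the ERβKO ovaries (SD, n = 4), without overlap, as was so for 7.61% of the genes tested. Its adjusted p was 0.0532 by edgeR and 0.00301 by DESeq2. Lect2, an alternative ligand of Tie1, was too low to test.

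The cells that carry or feed this pathway were followed by markers. Fewer cells of a type and less RNA per cell cannot be told apart in bulk ovaries. Of 17 endothelial markers, edgeR called 0, 13 had a log2 fold change below 0, and the list median was -0.12. Their summed level was 166 to 191 FPKM in WT and 158 to 184 FPKM in ERβKO ovaries. As a percentage of this endothelial sum, Tek was 3.21% ± 0.28 in WT (SD, n = 5) and 3.16% ± 0.18 in ERβKO (SD, n = 4), while Angpt2 was 3.06% ± 0.64 and 5.31% ± 1.74. Angpt2 thus had the higher mean in ERβKO ovaries relative to endothelial markers too, with overlap of the groups.

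Of the 17, 4 had an unadjusted p below 0.05, beside 19.8% of all genes tested: 2 with a lower level in ERβKO ovaries, Kdr, a VEGF receptor (log2 fold change -0.23), and Clec14a (-0.22), and 2 with a higher level, Vwf and Plvap. None of these passed with edgeR. DESeq2 called the 2 higher ones, beside 4.66% of all genes; these and the other marker genes named below for a DESeq2 call were chosen after their values were seen. They are Vwf, the von Willebrand factor stored with angiopoietin 2 in endothelial granules, and Plvap, a protein of fenestrated endothelium. Vwf averaged 1.68 ± 0.25 FPKM over the WT ovaries (SD, n = 5) and 2.56 ± 0.31 FPKM over the ERβKO ovaries (SD, n = 4), with an adjusted p of 0.0522 by edgeR and 0.00355 by DESeq2. Plvap averaged 3.21 ± 0.83 FPKM and 4.90 ± 0.78 FPKM, with an adjusted p of 0.112 by edgeR and 0.0426 by DESeq2.

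Mural cells, the pericytes and smooth muscle cells that supply angiopoietin 1, were followed by 12 markers, of which 11 had a log2 fold change below 0, with a list median of -0.29. Of the 12, 5 had an unadjusted p below 0.05 by edgeR, all lower in ERβKO ovaries, beside 19.8% of all genes tested. EdgeR called 1 of the 12, beside 1.72% of all genes: Pdgfrb, the receptor that recruits pericytes, fell by 0.59 ± 0.13 on the log2 scale (SE), with an adjusted p of 0.0487 by edgeR. Its level averaged 13.4 ± 2.6 FPKM over the WT ovaries (SD, n = 5) and 9.03 ± 1.29 FPKM over the ERβKO ovaries (SD, n = 4), without overlap, as was so for 7.61% of the genes tested. That call was kept in 7 of 18 alternatives. DESeq2 called 2 of the 12, beside 4.66% of all genes: Pdgfrb, and Rgs5, a pericyte marker, which had a log2 fold change of -0.59 with an adjusted p of 0.054 by edgeR. The summed mural level overlapped, at 654 to 1055 FPKM in WT and 654 to 752 FPKM in ERβKO ovaries. Acta2 and Tagln, with WT means of 387 and 241 FPKM, weighed most in that sum. Rgs5 and Pdgfrb, with WT means of 22.5 and 13.4 FPKM, weighed little. The part of mural markers in the lower Angpt1 was not tested.

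Granulosa cells of the follicle and luteal cells were followed in the same way. The 10 granulosa markers summed to between 563 and 688 FPKM among the WT libraries. Among the ERβKO libraries they summed to between 776 and 1036 FPKM, without overlap. Inha, with a mean of 352 FPKM for WT and 509 FPKM for ERβKO, weighed most in that sum. As single genes, only Inhbb and Hsd17b1 of the 10 were without overlap, beside 7.61% of the genes tested. How often a sum of 10 genes fails to overlap was not tested. Of the 10, 4 had an unadjusted p below 0.05 by edgeR, all higher in ERβKO ovaries, beside 19.8% of all genes tested. EdgeR called 2 of the 10, beside 1.72% of all genes: Inhbb, an inhibin and activin subunit, at a log2 fold change of 1.09 ± 0.15 (SE, adjusted p 0.00883 by edgeR), and Hsd17b1, which reduces estrone to estradiol, at 0.77 ± 0.16 (SE, adjusted p 0.0363 by edgeR). Inhbb was called in 18 of 18 alternatives and Hsd17b1 in 9 of 18. DESeq2 called 4 of the 10, beside 4.66% of all genes: these and Fshr, the receptor of follicle-stimulating hormone (1.06), and Inha, the inhibin α subunit (0.50). Of 10 luteal markers, edgeR called 0, beside 1.72% of all genes, and 9 had a log2 fold change below 0, with a list median of -0.89 and summed levels of 3127 to 6726 FPKM in WT and 2582 to 4069 FPKM in ERβKO ovaries. An unadjusted p below 0.05 by edgeR was found for 5 of the 10, all lower in ERβKO ovaries, beside 19.8% of all genes tested. They include Cyp11b1 (log2 fold change -4.26), a low transcript that ranged from 0 to 4.58 FPKM in WT ovaries. Akr1c18, the 1 luteal marker with a log2 fold change above 0, had 1.23 with an adjusted p of 0.677 by edgeR. DESeq2 called 2 of the 10, beside 4.66% of all genes, both with a lower level in ERβKO ovaries: Star, which brings cholesterol into mitochondria (log2 fold change -1.91), and Cyp11a1, which cleaves its side chain (-0.86).

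The luteal sum followed Angpt1 in part of the WT ovaries. WT replicates 5 and 1, with the highest luteal sums of 6726 and 6210 FPKM, also had the highest Angpt1, while WT replicate 3, with the lowest WT Angpt1, had a luteal sum of 3904 FPKM, above the 3127 FPKM of WT replicate 2. ERβKO replicate 3 had a luteal sum of 4069 FPKM, above those of WT replicates 2 and 3, with an Angpt1 of 2.72 FPKM. Hsd3b1 and Cyp11a1, with WT means of 2533 and 1353 FPKM, weighed most in the luteal sum. The part of luteal or granulosa markers in the ligand differences was not tested.

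Markers of tissue next to the ovary also varied. All 7 adipocyte markers had an unadjusted p below 0.05, beside 19.8% of all genes tested, and a higher level in ERβKO ovaries, with a list median of 1.36. EdgeR called 0 of the 7 and DESeq2 called 3, Plin1, Cidec and Lep, beside 4.66% of all genes. Their summed level was 137 to 262 FPKM in WT and 157 to 1023 FPKM in ERβKO ovaries. ERβKO replicate 1, with the highest adipocyte sum, had the lowest Angpt2 of its genotype, and ERβKO replicate 4, with the lowest adipocyte sum, had the highest Angpt2. Oviduct epithelial markers were present throughout, with summed levels of 1363 to 2487 FPKM in WT and 1586 to 2035 FPKM in ERβKO ovaries. Ovgp1 (log2 fold change -0.12), with a WT mean of 1774 FPKM, weighed most in that sum. Of the 6 oviduct markers, 5 had a log2 fold change above 0. An unadjusted p below 0.05 by edgeR was found for 2 of these, beside 19.8% of all genes tested. No marker of any list was at 0 in every ovary.

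**Figure D4:**
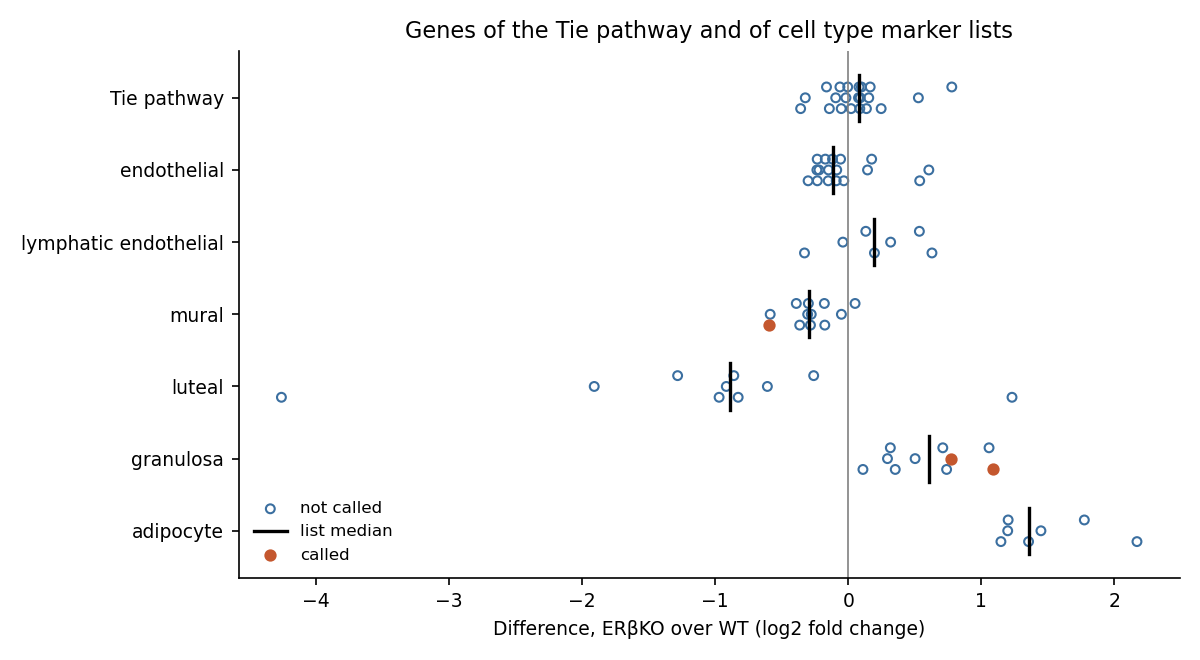
Log2 fold change, ERβKO over WT (x axis), of each tested gene in the Tie pathway and selected marker lists. Each circle is 1 gene, filled where edgeR called it a DEG, and the black bar is the list median. The Tie pathway median is 0.077, the mural median -0.29 and the adipocyte median 1.36, and the 3 filled points are Pdgfrb, Hsd17b1 and Inhbb.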

How the data were processed

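Poly-A RNA of 9 whole ovaries (5 WT, 4 ERβKO) was sequenced from stranded libraries, and the authors mapped the reads to GRCm38 with STAR. The authors deposited raw counts per gene from featureCounts, and FPKM, TPM and coverage per gene from StringTie. The versions, the annotation release and the strand setting of counting are not given in the sources used here. Raw counts were tested with edgeR 4.0.16 (R 4.3.3; TMM factors, filterByExpr, quasi-likelihood F test, Benjamini-Hochberg adjustment over 16722 genes, genotype as the only term). The DEG thresholds were those of the study, whose tool, DESeq2 (1.42.0 here), served as an alternative. FPKM gave levels per length. TPM served in 1 alternative only, since mt-Nd4l took 55.9% to 58.4% of it per library. That alternative was the Angpt2-to-Angpt1 ratio within an ovary, where the library scaling cancels, so TPM had to give the same difference as FPKM. The deposited coverage was not used for any result.

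Other alternatives were size factors of DESeq2, upper-quartile factors, dropping the filter on low counts, a minimum of 10 counts in each library, a block for the replicate number, the libraries numbered below 200 in the labels, limma (3.58.1) on log2(FPKM + 1) and log2(FPKM + 0.1), and each library left out in turn. Only WT replicates 4 and 5 carry a number above 200 (201 and 202). The setting below 200 therefore compares WT replicates 1 to 3 with all ERβKO libraries. Number series and genotype are thus partly confounded, and no ERβKO library can be compared within the higher series. The code was tested on simulated data with known changes. The members and lists were chosen with earlier results of these data known. Named were the members, the called genes and the extremes of the pathway list, the called marker genes, the 3 genes most like each member, and Esr2. Also named were the list genes that DESeq2 called and further single marker genes, both chosen after their values were seen. A further list of related genes is not reported here. Promoter sequences are from RefSeq (GRCm38.p6), and exon overlaps from GENCODE M21.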

Additional observations from a re-analysis of the deposited data

How the results depend on the processing

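Over 18 alternatives, the log2 fold change ranged from -1.11 to -0.63 for Angpt1, from 0.52 to 0.88 for Angpt2, from 0.62 to 1.14 for Angpt4 and from -0.11 to -0.052 for Tek, each with 1 direction throughout. Adjusted p ranged from 0.0121 to 0.314, from 0.0221 to 0.262, from 0.0488 to 0.392 and from 0.493 to 0.793 in that order. The ligands passed the threshold with DESeq2, at -0.95 for Angpt1, 0.72 for Angpt2 and 0.95 for Angpt4, and Angpt1 also without WT replicate 3, the WT ovary with the lowest Angpt1. With 1 library left out, the estimates ranged from -1.11 to -0.72 for Angpt1, from 0.52 to 0.88 for Angpt2, from 0.70 to 1.14 for Angpt4 and from -0.087 to 0.12 for Tie1. Tie1 turned to -0.0093 in the libraries numbered below 200, to -0.013 without WT replicate 2, to -0.0062 without WT replicate 4 and to -0.087 without ERβKO replicate 1. The cause was not tested. The difference of the log2 Angpt2-to-Angpt1 ratio stayed between 1.35 (libraries numbered below 200) and 1.70. The number of DEGs, 287 with edgeR, was 805 with DESeq2 and 51 in the libraries numbered below 200. With 1 library left out it ranged from 60 to 912: it was 118, 912, 161 and 110 without WT replicates 1, 2, 4 and 5, and 60, 152 and 80 without ERβKO replicates 2, 3 and 4. Deviations of same-numbered libraries correlated with r from -0.043 to 0.130, and those of libraries with different numbers with r from -0.297 to 0.205. Replicate numbers thus showed no sign of a pairing, though so few libraries cannot exclude one. A fit with the replicate block called 155 DEGs and gave -0.67 for Angpt1, 0.70 for Angpt2, 0.88 for Angpt4, -0.11 for Tek and 0.0088 for Tie1, none of them called. Depth limits Angpt4 the most, whose lowest count in a library was 38.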

Other observations

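Lymphatic endothelial markers, of cells in which angiopoietin 2 acts as a Tie2 agonist, summed to 91.2 to 142 FPKM in WT and 141 to 154 FPKM in ERβKO ovaries. EdgeR and DESeq2 called 0 of the 7, 3 had an unadjusted p below 0.05, all higher in ERβKO ovaries, beside 19.8% of all genes tested in either direction, and the list median was 0.20. Of the 7, 5 had a log2 fold change above 0 and 2 below, Prox1 at -0.33 and Flt4 at -0.041. Ccl21a and Pdpn, with WT means of 56.3 and 37.5 FPKM, weighed most in the sum. By that sum, WT replicate 2 alone reached the ERβKO range. For the remaining lists edgeR called 0 markers, DESeq2 called 1 (Mgarp of the theca list, lower in ERβKO ovaries, log2 fold change -0.79), and the median log2 fold change was 0.013 for theca, -0.022 for stroma, 0.42 for oocyte, 0.062 for macrophage, 0.32 for oviduct epithelium and 0.091 for erythroid markers. The theca markers were split: of 6 tested, 3 had a log2 fold change above 0 and 3 below. Cyp17a1 was the highest of them, at 2.35 with an adjusted p of 0.205 by edgeR.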
